A study of Mus musculus with 12 samples.

Results

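The nuclear-encoded respiratory chain genes are the genes of the cell nucleus that specify the subunits of the mitochondrial electron transport complexes and of ATP synthase. They were taken by name from the deposited table: names beginning with Nduf, Uqcr, Cox4i, Cox5, Cox6, Cox7, Cox8 or Atp5, together with Sdha, Sdhb, Sdhc, Sdhd and Cyc1. Of 37991 genes in the table, 92 matched, and 1 pseudogene (Atp5l-ps1) was dropped, which left 91. By complex they comprised 36 genes of complex I, 4 of complex II, 9 of complex III, 20 of complex IV, 16 of complex V and 6 assembly or coupling factors that share the name stems (Ndufaf1 to Ndufaf4, Atp5s and Atp5sl). A gene was tested where it reached at least 1 FPKM (sequenced fragments scaled to transcript length and library size) in at least 3 libraries, which held for 11213 genes and for 85 of the 91. The 6 that did not were all tissue isoforms of complex IV: Cox4i2, Cox6b2, Cox7b2, Cox8b, Cox8c and Ndufa4l2.

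RNA sequencing was done on primary hepatocytes, the principal cell of the liver, isolated with collagenase from male mice of 10 weeks in which both REV-ERB genes (REV-ERBα, Nr1d1, and REV-ERBβ, Nr1d2) were floxed. All animals carried the floxed alleles. The KO cells came from mice injected 2 weeks earlier with AAV8 carrying Cre and GFP under TBG, a promoter active in hepatocytes, and the control cells from mice given AAV8-TBG with GFP and no Cre. No group had Cre without floxed alleles, so Cre itself and REV-ERB deletion cannot be told apart. Cultured cells were exposed for 8 h to 10 µM SR9009, a synthetic compound described as a REV-ERB agonist, or to the solvent DMSO. The 4 groups were KO SR9009, control SR9009, KO DMSO and control DMSO, with 3 libraries each. The labels do not say whether replicates are separate mice or plates of 1 preparation, so the p-values reflect library-to-library spread alone, which may be technical.

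Complex I (NADH dehydrogenase) and complex II (succinate dehydrogenase, also an enzyme of the tricarboxylic acid cycle) pass electrons to ubiquinone, complex III (cytochrome bc1) passes them to cytochrome c, and complex IV (cytochrome c oxidase) hands them to oxygen. Complexes I, III and IV pump protons across the inner mitochondrial membrane, and complex V (ATP synthase) makes ATP from the returning flow. Most subunits are nuclear-encoded and imported, the mitochondrial chromosome supplies the rest, and complex II is nuclear-encoded throughout. Hepatocytes are rich in mitochondria, which supply ATP for glucose and urea synthesis. The REV-ERB proteins are transcriptional repressors of the circadian clock that bind the RORE sequence and repress, among others, the clock genes Arntl and Npas2.

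The label KO was checked first. Nr1d1 averaged 17.7 FPKM in KO DMSO libraries and 18.5 FPKM in control DMSO libraries, and Nr1d2 16.2 and 15.3 FPKM in the same groups, so whole-gene levels did not show the deletion. A level summed over a gene need not fall when an internal exon is removed, and the labels do not name the floxed exons. The REV-ERB target Arntl averaged 6.49 FPKM in KO DMSO libraries and 0.214 FPKM in control DMSO libraries, and Npas2 6.68 and 0.0867 FPKM. The cells are called KO-labelled below. Hepatocyte markers summed to 32514 to 34701 FPKM in KO-labelled DMSO libraries and 31550 to 32026 FPKM in control DMSO libraries, and to 30417 to 31294 FPKM in KO-labelled SR9009 libraries and 27888 to 29876 FPKM in control SR9009 libraries. Of the 8 hepatocyte markers, 4 fell with SR9009 in KO-labelled cells and 4 in control cells, and 3 rose in KO-labelled against control cells in DMSO. In SR9009, 3 rose and 2 fell in KO-labelled against control cells. Kupffer cell or macrophage markers summed to between 30.9 and 43.2 FPKM per library and stellate cell markers to at most 1.79 FPKM. Of the 6 tested Kupffer cell or macrophage markers, Cd68 rose and Marco fell in KO-labelled against control cells in DMSO. The other 4 were not called. Marco had 1.29 to 2.18 FPKM in KO-labelled DMSO libraries and 8.02 to 10.6 FPKM in control DMSO libraries. Endothelial markers summed to 10.8 to 16.1 FPKM in KO-labelled DMSO libraries and 7.03 to 7.93 FPKM in control DMSO libraries. Cholangiocyte markers summed to 29.1 to 38.8 and 42.1 to 44.7 FPKM in the same groups, mostly from Spp1. Sox9, the other tested cholangiocyte marker, lay the other way, at 7.82 to 10.5 and 2.34 to 3.28 FPKM. The sums therefore do not show the number of these cells, and their part in the results was not tested. Relative depth, read from the value that 1 fragment adds to short genes, ranged from 55.2% (control SR9009 library 1) to 100% (control DMSO library 1).

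The third control SR9009 library stood apart for these genes. Of the 85 tested members, 79 lay above their group mean there, with a median deviation of 0.19 on the log2(FPKM + 1) scale, against -0.10 and -0.08 in the other 2 control SR9009 libraries. The deviation followed transcript length across all tested genes of that library, with a median of 0.13 among transcripts of up to 1395 bp and -0.19 among those of 5386 bp or more. The cytosolic ribosomal protein genes, also short, had 80 of 81 tested members above their group mean there. The summaries and calls that change most without this library are given both ways.

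Most respiratory chain subunits ranked among the more abundant transcripts of these hepatocytes. The median level of the 85 tested members was 92.9 FPKM, against 9.01 FPKM for all tested genes, and 39 of the 91 averaged over 100 FPKM. The highest member was Atp5b, the catalytic β subunit of ATP synthase, with a median of 592 FPKM and a range of 554 to 626 FPKM over the 12 libraries. Cox6a1, a small subunit of cytochrome c oxidase, had a median of 571 FPKM and a range of 513 to 652 FPKM, and Cox4i1, its largest nuclear-encoded subunit, 512 FPKM and 491 to 625 FPKM. The order of these 3 is not firm, since their ranges overlapped.

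By complex, median levels were 233 FPKM for the 14 tested genes of complex IV, 165 FPKM for complex III, 128 FPKM for complex V, 108 FPKM for complex II, 63.6 FPKM for complex I and 9.26 FPKM for the assembly or coupling factors. Within complex I the levels ran from 13.2 FPKM for Ndufa11 to 235 FPKM for Ndufb9, both accessory subunits, so transcripts of 1 complex were far from equal in abundance. In complex II the level of Sdha, the flavoprotein that oxidises succinate, was 153 FPKM, and that of Sdhc, a membrane anchor, was 37.0 FPKM. Uqcrq, an accessory subunit, led complex III at 213 FPKM. FPKM values are per length of transcript, so these are comparisons of levels between genes on 1 scale.

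**Figure D1:**
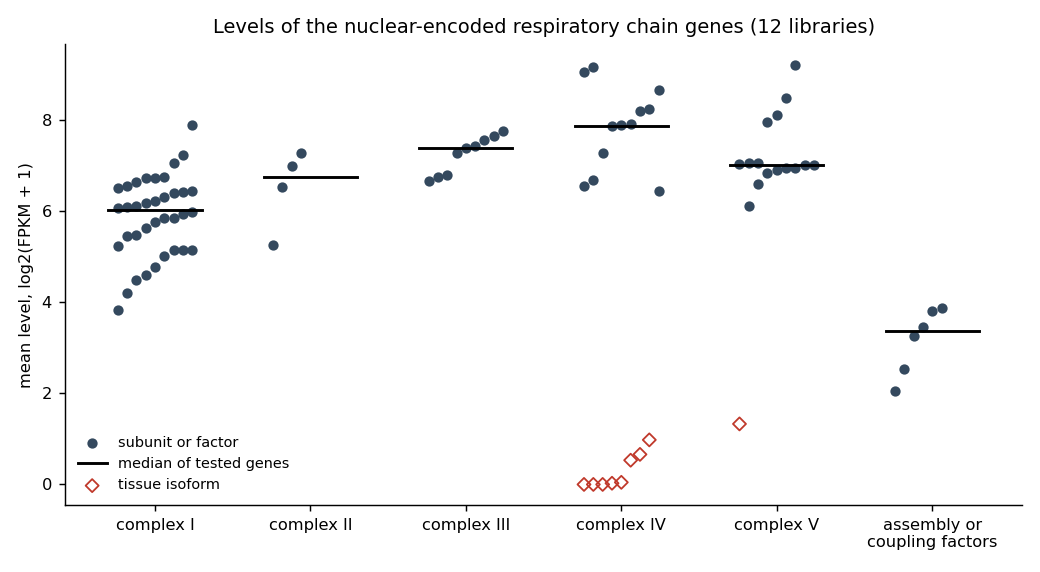
Mean level over 12 libraries of the 91 genes on a log2(FPKM + 1) axis, by complex; each point is 1 gene, diamonds are tissue isoforms and bars are medians of the tested genes. Complex IV has the highest median, though the highest gene is Atp5b of complex V, and the 8 tissue isoforms of complex IV lie near 0. The median of the assembly or coupling factors lies below that of every complex.

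Several subunits of complex IV exist as a general (liver-type) and a tissue-restricted isoform, and the hepatocytes held the liver-type member of each pair. Cox4i1 averaged 525 FPKM, and Cox4i2, the lung-enriched isoform, 0.0183 FPKM. Cox6a1 averaged 573 FPKM, and Cox6a2, the heart and skeletal muscle isoform, 0.579 FPKM. Cox6b1 averaged 234 FPKM, and Cox6b2, the testis isoform, 0.0326 FPKM. Cox7a2 (101 FPKM) and Cox7a2l (92.3 FPKM), of which Cox7a2l is known for a role in supercomplex assembly, stood against 0.969 FPKM for the muscle isoform Cox7a1. Cox8a averaged 300 FPKM, while Cox8b and Cox8c were listed at 0 in every library, as was Cox7b2 beside Cox7b at 85.6 FPKM. Ndufa4, a subunit of complex IV despite its name, averaged 404 FPKM, and its paralogue Ndufa4l2 0.445 FPKM. Low values such as these rest on few fragments.

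Promoter sequences were examined for what the genes share beyond their names. Promoters of 300 bases, from 250 before to 50 after the annotated start, came from RefSeq on GRCm38.p6 and were matched for 74 members, 71 of them tested, and for 8142 tested protein-coding genes. Each motif was searched on both strands. The motif of NRF1, a known activator of respiratory genes, was found in 18 of the 71 members (25.4%) and in 12.7% of the tested coding genes. The motif AAGATGGC of YY1 was found in 11 members (15.5%), against 5.94% of the tested coding genes. CCGGAAG, a core of ETS factors such as GABPA, was found in 17 members (23.9%), near the 22.1% of the tested coding genes, and TCAAGGTCA, bound by oestrogen-related receptors, in 2 members (2.82%), against 0.319%. The RORE spelled ANTAGGTCA, to which REV-ERB proteins bind, was in 0 of 71, against 0.504% of the tested coding genes, and the E-box CACGTG in 9.86%, against 12.5%. In no member did motifs of different kinds overlap. A match or its absence describes only these letters in these windows.

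Promoters of 4 genes on which the results below turn are shown, with every NRF1, ETS, YY1 or oestrogen-related receptor motif in capitals. Sdha held 3 NRF1 motifs, as did Ndufb4 among the 71 members, against 0.332% of the tested coding genes with 3 or more. Cox8a held CCGGAAG in 2 places, both on the opposite strand and so read here as CTTCCGG, and Sdhb held it in 1. Ndufab1 held no such motif, as was the case for 31 of the 71 members. The windows lie at chr13:74350191-74350490 (Sdha, minus strand), chr4:140961021-140961320 (Sdhb, plus strand), chr19:7217567-7217866 (Cox8a, minus strand) and chr7:122101799-122102098 (Ndufab1, minus strand), and each is printed 5′ to 3′ along its gene.
Sdha: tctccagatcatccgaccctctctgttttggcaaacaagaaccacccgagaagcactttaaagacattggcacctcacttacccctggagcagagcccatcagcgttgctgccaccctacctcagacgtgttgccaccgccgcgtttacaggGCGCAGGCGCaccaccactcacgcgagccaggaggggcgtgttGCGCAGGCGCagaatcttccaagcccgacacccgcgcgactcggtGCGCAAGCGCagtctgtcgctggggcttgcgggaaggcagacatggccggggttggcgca
Sdhb: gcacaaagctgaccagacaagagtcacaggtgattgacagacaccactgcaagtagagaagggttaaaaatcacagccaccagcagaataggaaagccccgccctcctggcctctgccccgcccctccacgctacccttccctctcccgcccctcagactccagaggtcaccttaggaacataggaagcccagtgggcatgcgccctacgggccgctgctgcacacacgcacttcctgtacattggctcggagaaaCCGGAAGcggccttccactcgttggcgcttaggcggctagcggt
Cox8a: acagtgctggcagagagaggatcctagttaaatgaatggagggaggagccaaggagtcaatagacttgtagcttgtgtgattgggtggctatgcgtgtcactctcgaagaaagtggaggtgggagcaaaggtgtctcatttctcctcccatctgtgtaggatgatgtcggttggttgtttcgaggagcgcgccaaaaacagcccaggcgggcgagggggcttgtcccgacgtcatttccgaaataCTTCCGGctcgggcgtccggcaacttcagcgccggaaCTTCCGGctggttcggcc
Ndufab1: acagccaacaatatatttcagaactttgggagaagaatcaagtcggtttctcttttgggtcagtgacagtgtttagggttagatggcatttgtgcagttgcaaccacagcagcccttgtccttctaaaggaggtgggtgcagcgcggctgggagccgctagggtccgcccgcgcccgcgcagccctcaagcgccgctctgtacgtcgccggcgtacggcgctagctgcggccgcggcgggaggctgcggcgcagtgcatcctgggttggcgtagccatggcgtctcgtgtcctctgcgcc

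The first comparison asked what REV-ERB deletion does to these genes in solvent-treated hepatocytes. Levels of the respiratory chain genes differed little between KO-labelled and control cells. Of the 85 tested members, 2 rose and 1 fell at an adjusted p under 0.05 (limma on log2(FPKM + 1), Benjamini-Hochberg adjustment over all tested genes), which is 3.53%, while 20.0% of all 11213 tested genes were called (11.7% higher and 8.32% lower). At an unadjusted p under 0.05 there were 12 members (14.1%), against 32.5% of all tested genes. Groups did not overlap for 28 members (32.9%), 12 higher and 16 lower, against 41.2% of all tested genes (23.7% higher and 17.5% lower). The 16 include Cox6a2, which passed the filter on low values only through control libraries. The median log2 difference of the members was -0.03, against 0.04 for all tested genes. For 80 of the 85 the 95% interval of the difference lay within 1.5-fold in either direction. In bulk libraries, fewer cells of a type and less RNA per cell cannot be told apart.

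Both genes that rose were catalytic or core subunits. Sdha, at chr13:74459702-74487728 on mm9, had 168, 167 and 162 FPKM in KO-labelled DMSO libraries, against 148, 154 and 144 FPKM in control DMSO libraries. Every KO-labelled library was above every control library, and the log2 difference was 0.16 ± 0.05 (SE, n = 3 each), adjusted p = 0.0344 by limma. Cyc1, which encodes cytochrome c1, the haem subunit of complex III that reduces cytochrome c, had 175, 182 and 171 FPKM in KO-labelled DMSO libraries, against 162, 155 and 161 FPKM in control DMSO libraries. Its groups did not overlap either, with a log2 difference of 0.14 ± 0.04 and a limma adjusted p of 0.0425.

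The gene that fell was Cox8a, the liver-type form of the smallest subunit of cytochrome c oxidase. It had 267, 272 and 264 FPKM in KO-labelled DMSO libraries, against 305, 317 and 304 FPKM in control DMSO libraries. The groups did not overlap, and the level was 13.2% lower in KO-labelled cells, a log2 difference of -0.20 ± 0.06 with a limma adjusted p of 0.0366. These 3 calls are small and close to the threshold, and of 22 alternative settings Sdha lost its call under 11, Cyc1 under 15 and Cox8a under 12. Leaving out the control DMSO library 1 or 3, any KO-labelled DMSO library or KO SR9009 library 2 left no member called, and leaving out control DMSO library 2 left Sdha. Without the third control SR9009 library, which enters through the shared variance, 15 members were called, 5 higher and 10 lower.

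Complex II showed different values among its 4 subunits in DMSO. Sdhb, the iron-sulphur subunit that takes electrons from Sdha, had 134, 137 and 133 FPKM in KO-labelled libraries, against 119, 123 and 119 FPKM in control libraries. Its groups did not overlap, but it did not pass the test (log2 difference 0.16, limma adjusted p = 0.164). Sdhd, a membrane anchor that helps bind ubiquinone, had 75.6, 83.3 and 83.6 FPKM in KO-labelled libraries, against 87.7, 94.4 and 94.7 FPKM in control libraries, so it lay on the other side of its control (log2 difference -0.19, limma adjusted p = 0.0747). Sdhc, the other anchor, had 33.0, 37.2 and 38.6 FPKM in KO-labelled libraries, against 34.4, 34.9 and 36.1 FPKM in control libraries, and its groups overlapped.

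Of the 36 complex I genes, 0 passed the test in DMSO, with log2 differences from -0.32 to 0.16, and 17 were positive. The 7 core subunits, which carry the flavin and the iron-sulphur clusters, ranged from -0.10 to 0.12. In complex III the 4 core genes ranged from -0.00 to 0.14, while all 5 accessory genes, small proteins without redox centres, were negative, from -0.29 for Uqcr11 to -0.04 for Uqcrh. None of the 5 passed the test, and 1 of them was positive under TPM. In complex IV, 10 of the 14 tested genes were negative (median -0.11), and in complex V, 9 of 16 (median -0.01). The 14 include Cox6a2, which passed the filter on low values only through control libraries. Without the tissue isoforms of complex IV, 4 of 12 were positive (median -0.10). Over all tested genes 6311 of 11213 were positive in this comparison. Medians this small depended on scaling: rescaling each library to TPM turned the median of all 85 members to 0.02 and called 8 genes, all higher, while scaling by median of ratios gave -0.07 and called Cox8a alone.

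**Figure D2:**
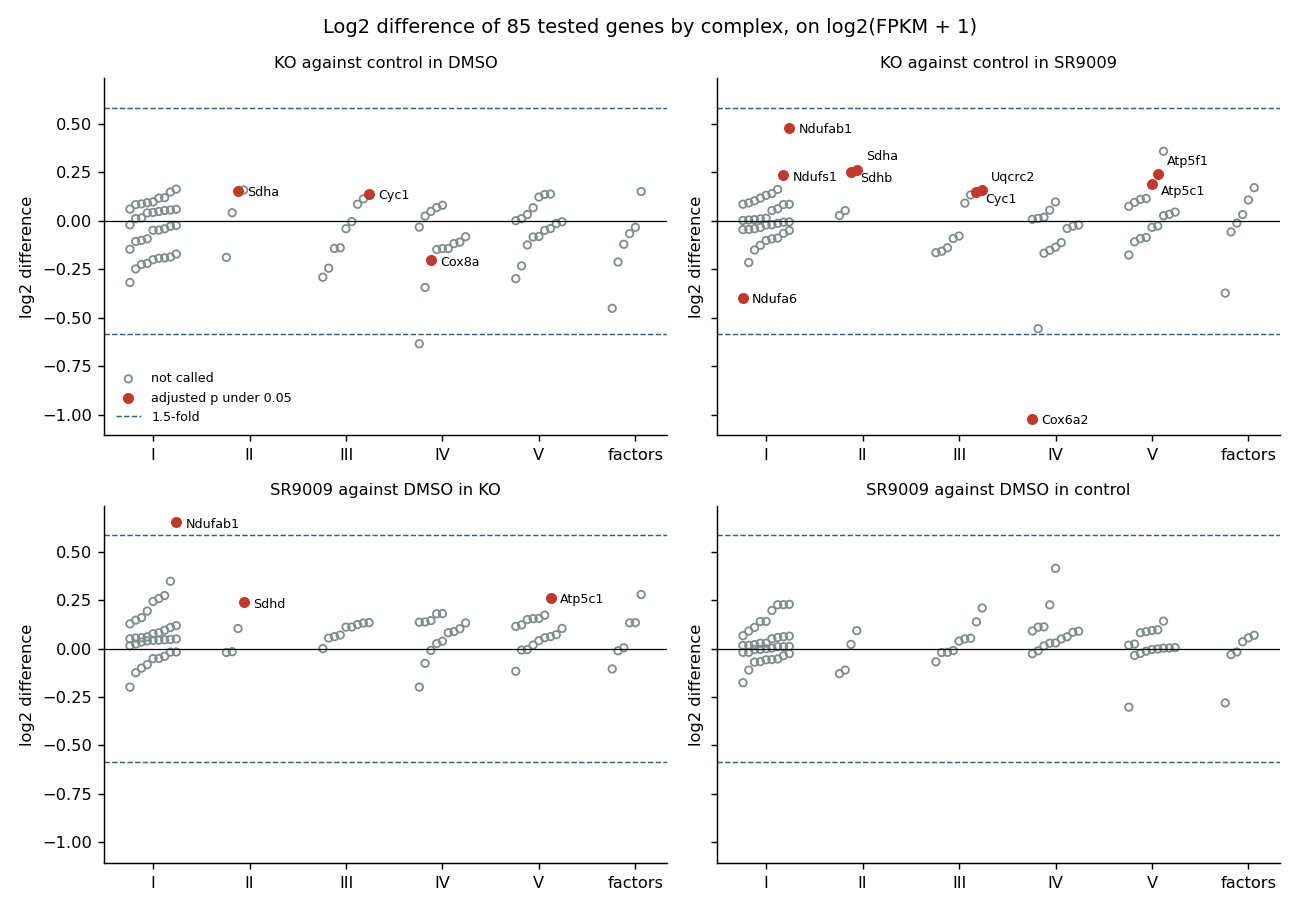
Log2 difference, on log2(FPKM + 1), of the 85 tested genes by complex in 4 comparisons; filled points passed an adjusted p of 0.05 and dashed lines mark 1.5-fold. Nearly all points lie between the dashed lines, and the filled points beyond them are Ndufab1 for SR9009 in KO-labelled cells and Cox6a2, which entered the test through control libraries alone, for KO-labelled against control cells in SR9009.

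Transcript length moved with these differences. Members are short, with a median longest transcript of 1231 bp, against 3093 bp for all tested genes with a length in GENCODE M21. In KO-labelled against control cells in DMSO the median log2 difference was -0.08 for the 49 members of up to 1395 bp, -0.02 for the 20 of 1396 to 2264 bp and 0.12 for the 8 of 2265 to 3093 bp. The 8 longer members did not continue this order, with -0.09 for the 4 of 3094 to 4028 bp, 0.14 for the 3 of 4029 to 5384 bp and -0.04 for the longest. Over all tested genes the 6 classes had medians of -0.07, 0.02, 0.04, 0.05, 0.07 and 0.08. Sdha (2900 bp) and Cyc1 (1791 bp) are among the longer members and Cox8a (550 bp) among the shorter. With each library's trend on length removed, an alternative chosen after seeing the data, the median of the members was 0.00 and 3 genes were called: Cox8a lower, and Sdhb and Ndufc2 higher. How much of the member differences length accounts for was not tested beyond that.

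**Figure D3:**
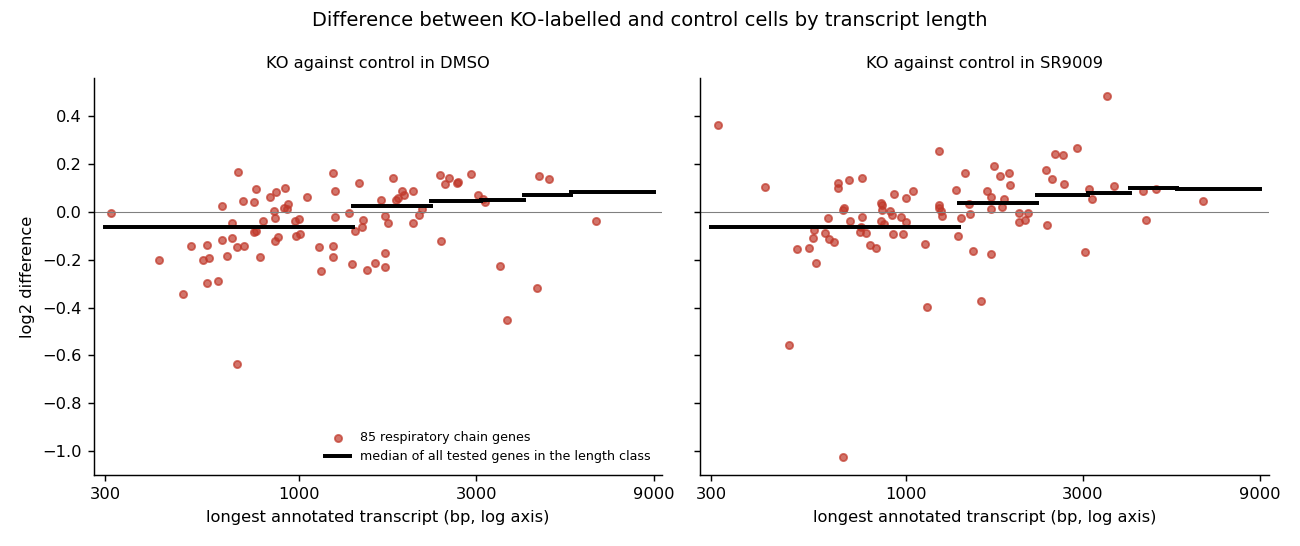
Log2 difference of KO-labelled against control cells in DMSO (left) and in SR9009 (right) by the length of the longest annotated transcript, on a log axis from 300 bp; red points are the 85 genes and black bars are medians of all tested genes in 6 length classes. Genes of up to 1395 bp lie mostly below 0 on the left (median -0.08) and closer to it on the right (median -0.03), and those of 2265 to 3093 bp mostly above in both. The right panel includes the third control SR9009 library, whose deviation followed length.

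The comparison of SR9009 with DMSO in control cells asked what the compound does where REV-ERB is present. No member was called (0 of 85, 0 higher and 0 lower), while 8.24% of all tested genes passed (3.69% higher and 4.55% lower). At an unadjusted p under 0.05 in limma there were 2, Sdha and Ndufc2, against 21.6% of all tested genes. Rescaling to TPM, scaling by median of ratios and limma without a variance trend likewise called 0. Sdha had 140, 133 and 134 FPKM in control SR9009 libraries, against 148, 154 and 144 FPKM in control DMSO libraries, without overlap (log2 difference -0.13, limma adjusted p = 0.122). Ndufc2, an accessory subunit of complex I, had 58.9, 68.0 and 80.7 FPKM in control SR9009 libraries, against 58.5 FPKM in each control DMSO library (log2 difference 0.23, limma adjusted p = 0.152). Groups did not overlap for 3 members (3.53%), against 25.0% of all tested genes, 2 higher (10.8% of all) and 1 lower (14.2%). The median log2 difference was 0.02, and -0.07 without the third control SR9009 library, when Ndufa1 and Ndufa8 were called lower. Leaving out the first or the second of these libraries called 1 gene each, Ndufc2 or Ndufb7, both higher.

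In KO-labelled cells SR9009 raised 3 of the 85 members and lowered 0, against 9.87% of all tested genes called in either direction (5.32% higher and 4.56% lower). At an unadjusted p under 0.05 there were 8, against 22.9%. The clearest was Ndufab1, the mitochondrial acyl carrier protein, which serves both as an accessory subunit of complex I and in mitochondrial fatty acid and lipoic acid synthesis. It had 38.4, 32.9 and 31.6 FPKM in KO-labelled SR9009 libraries, against 19.9, 22.4 and 21.9 FPKM in KO-labelled DMSO libraries. Every treated library exceeded every DMSO library, and the level was 60.1% higher, a log2 difference of 0.65 ± 0.13 (SE, n = 3 each) with a limma adjusted p of 0.00797. It passed under each of the 22 alternative settings. Of the 50-base words in its transcripts, 7.13% also occur in transcripts of other genes, so a small part of its reads could be shared.

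Atp5c1, the γ subunit that forms the rotating shaft of ATP synthase, had 152, 146 and 146 FPKM in KO-labelled SR9009 libraries, against 115, 128 and 127 FPKM in KO-labelled DMSO libraries. The groups did not overlap (log2 difference 0.26 ± 0.06, limma adjusted p = 0.0115). Sdhd had 99.1, 93.8 and 93.5 FPKM in KO-labelled SR9009 libraries, against 75.6, 83.3 and 83.6 FPKM in KO-labelled DMSO libraries (log2 difference 0.24 ± 0.07, limma adjusted p = 0.0473), again without overlap. The Sdhd call was lost under 14 of 22 alternative settings and the Atp5c1 call under 1. Leaving out KO SR9009 library 1 left Ndufab1 alone, and without the third control SR9009 library Ndufa12 and Ndufb2 were also called higher.

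Beyond the called genes, 66 of 85 members had a positive log2 difference for SR9009 in KO-labelled cells, as did 5702 of all 11213 tested genes. The median of the members was 0.07, against 0.00 for all tested genes and 0.04 for all those of up to 1395 bp. Groups did not overlap for 23 members (27.1%), 22 of them higher, where 32.3% of all tested genes did not overlap and 16.9% were higher and 15.4% lower. All 9 complex III genes were positive, from 0.00 to 0.13, as were 11 of 14 in complex IV and 13 of 16 in complex V. The median stayed positive under TPM (0.06), median of ratios (0.06), quantile normalization (0.03) and removal of the length trend (0.04). The cytosolic ribosomal protein genes had 79 of 81 positive in the same comparison (median 0.14).

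Whether SR9009 acted differently in KO-labelled and control cells was tested by the interaction. Over all genes 3 passed (0.0268%), 2 positive (0.0178%) and 1 negative (0.00892%), and 0 of the 85 members did, in limma, with 3 at an unadjusted p under 0.05 (7.02% of all tested genes): Ndufab1, Atp5c1 and Sdhd. For Ndufab1 the difference between the 2 SR9009 effects was 0.71 ± 0.18 on the log2 scale (limma adjusted p = 0.454), with 38.4, 32.9 and 31.6 FPKM in KO-labelled SR9009 libraries, against 20.4, 28.7 and 24.1 FPKM in control SR9009 libraries. The 2 comparisons of SR9009 with DMSO share no library, and 57 of the 85 members (67.1%) had the same sign in both, as did 67.2% of all tested genes. Without the third control SR9009 library 36 members did, against 63.7% of all tested genes. Across members the 2 sets of differences had r = 0.03 (-0.09 without that library) and, across all tested genes, r = 0.57 (genes are not independent replicates).

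In the presence of SR9009, KO-labelled cells were again set against control cells. Of the 85 members, 8 were called higher and 2 lower (11.8%), against 20.4% of all tested genes (12.9% higher and 7.43% lower). At an unadjusted p under 0.05 there were 17, against 33.3%. Of those called lower, Cox6a2 passed the filter on low values only through control libraries, so its call is no evidence of a fall. The median was 0.00 (0.10 without the third control SR9009 library), against 0.06 for all tested genes, and groups did not overlap for 15 members (17.6%), 10 higher and 5 lower, against 34.9% (22.7% higher and 12.3% lower). Cox6a2 is also among these 5. Genes that rose included subunits of complexes I, II, III and V, and none of complex IV. The comparison rests in part on the third control SR9009 library, and without it 11 were called higher and 2 lower.

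Within complex II, Sdha had 160, 162 and 168 FPKM in KO-labelled SR9009 libraries, against 140, 133 and 134 FPKM in control SR9009 libraries. It was 20.3% higher without overlap (log2 difference 0.27 ± 0.05, limma adjusted p = 0.00151) and passed under each of the 22 alternative settings. Sdhb had 135, 135 and 130 FPKM in KO-labelled libraries, against 97.7, 112 and 127 FPKM in control libraries (log2 difference 0.25 ± 0.08, limma adjusted p = 0.0316), a call lost under 9 of 22. Sdhc and Sdhd did not pass, with log2 differences of 0.05 and 0.03. Summed over its 4 genes, complex II lay at 429 to 433 FPKM in KO-labelled SR9009 libraries and 363 to 400 FPKM in control SR9009 libraries, and at 411 to 425 FPKM in KO-labelled DMSO libraries and 389 to 406 FPKM in control DMSO libraries. It was the only complex whose summed levels did not overlap between KO-labelled and control libraries under both treatments.

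In complex III, Cyc1 had 183, 182 and 186 FPKM in KO-labelled SR9009 libraries, against 166, 163 and 168 FPKM in control SR9009 libraries (log2 difference 0.15 ± 0.04, limma adjusted p = 0.0324). Uqcrc2, a core protein of the complex, had 107, 104 and 106 FPKM in KO-labelled libraries, against 95.5, 95.4 and 93.1 FPKM in control libraries (log2 difference 0.16 ± 0.04, limma adjusted p = 0.0181). The groups did not overlap for either gene, and the call was lost under 11 of 22 alternative settings for Cyc1 and 6 for Uqcrc2. All 4 core genes of the complex were positive and all 5 accessory genes negative, as in DMSO apart from Uqcrfs1, the Rieske iron-sulphur protein, at -0.00 there. Without the third control SR9009 library 3 of the 5 accessory genes were positive (median 0.05), and with the length trend removed 2 were.

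In complex I, Ndufs1, the largest core subunit, had 24.5, 24.0 and 26.2 FPKM in KO-labelled SR9009 libraries, against 20.5, 22.1 and 20.4 FPKM in control SR9009 libraries (log2 difference 0.24 ± 0.07, limma adjusted p = 0.0276). Ndufab1 was 40.3% higher (log2 difference 0.48 ± 0.13, limma adjusted p = 0.0212). Ndufa6, an accessory subunit of the matrix arm, had 150, 127 and 125 FPKM in KO-labelled libraries, against 174, 154 and 204 FPKM in control libraries. It fell by 24.5% (log2 difference -0.40 ± 0.10, limma adjusted p = 0.0127), and was still called without the third control SR9009 library, while Ndufab1 and Ndufs1 were not. Of 22 alternative settings, calls were lost under 3 for Ndufa6, 5 for Ndufab1 and 8 for Ndufs1. In DMSO, Ndufa6 had 132, 129 and 127 FPKM in KO-labelled libraries, against 146, 167 and 150 FPKM in control libraries (log2 difference -0.25, limma adjusted p = 0.101).

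In complex V, Atp5c1 had 152, 146 and 146 FPKM in KO-labelled SR9009 libraries, against 126, 131 and 132 FPKM in control SR9009 libraries (log2 difference 0.19 ± 0.06, limma adjusted p = 0.0327). Atp5f1, the b subunit of the peripheral stalk, had 138, 129 and 134 FPKM in KO-labelled libraries, against 104, 109 and 127 FPKM in control libraries (log2 difference 0.24 ± 0.07, limma adjusted p = 0.0267). It overlaps Wdr77 on the opposite strand by 731 bp, and whether counting used strand is not stated. Atp5c1 lost its call under 10 of 22 alternative settings and Atp5f1 under 9. Of the other 14 genes of the complex, 0 passed, among them Atp5b with a log2 difference of 0.11.

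In complex IV, Cox6a2, the muscle isoform, was listed at 0.245, 0 and 0.108 FPKM in KO-labelled SR9009 libraries, against 2.39, 0.559 and 1.19 FPKM in control SR9009 libraries. In DMSO it was listed at 0, 0.307 and 0 FPKM in KO-labelled libraries, against 1.06, 0.413 and 0.679 FPKM in control libraries. It reached 1 FPKM in 3 libraries, all of them control, and so could enter the test only by being higher there; its values are a description. The untested Ndufa4l2 was likewise at 0.184, 0.0944 and 0.411 FPKM in KO-labelled DMSO libraries, against 0.764, 1.12 and 1.11 FPKM in control DMSO libraries. Cox7a1 had 0.970, 1.05 and 0.328 FPKM in KO-labelled DMSO libraries, against 1.75, 0.944 and 1.05 FPKM in control DMSO libraries, with overlap. Of 6 skeletal muscle markers, Myh1, Myh4, Ckm, Tnnt3 and Myl1 were at 0 in all 12 libraries, and the sum, which is Acta1, was 0.00347 to 0.260 FPKM in KO-labelled DMSO libraries, 0.389 to 0.497 FPKM in control DMSO libraries, 0.00387 to 0.0676 FPKM in KO-labelled SR9009 libraries and 0.0924 to 0.351 FPKM in control SR9009 libraries. The part of muscle RNA in these values was not tested.

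**Figure D4:**
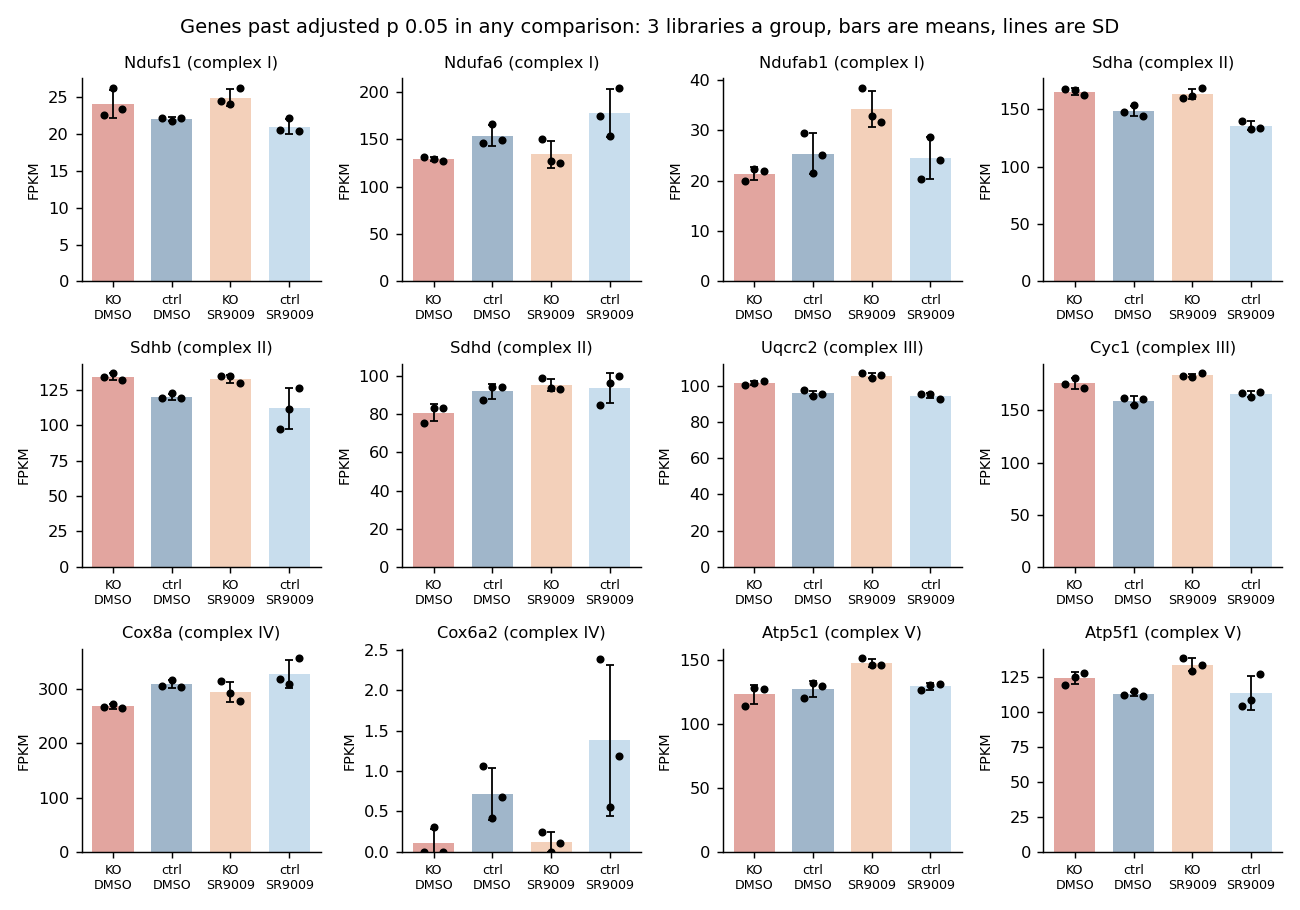
FPKM in each of 12 libraries (points) for the 12 genes called in any comparison, with group means (bars from 0) and SD (lines); each gene has its own axis. The points of KO-labelled libraries lie above those of control libraries under both treatments for Sdha, Sdhb, Cyc1, Ndufs1, Uqcrc2 and Atp5f1. They lie below under both for Ndufa6 and for Cox6a2, which is near 0 in KO-labelled libraries and at most 2.39 FPKM in any library. Cox6a2 could enter the test only by being higher in control libraries, so its points are a description.

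The 2 comparisons of KO-labelled with control cells share no library, so they can be set side by side. The same sign was found for 58 of the 85 members (68.2%), 26 higher in both and 32 lower in both, against 74.7% of all tested genes. Without the third control SR9009 library it was 44, against 71.2% of all tested genes. Across members r was 0.59 and Spearman's rho 0.54 (0.47 and 0.37 without that library), and across all tested genes r was 0.78 (all across genes, which are not independent replicates). Of the 3 members called in DMSO, 2 were also called in SR9009, Sdha and Cyc1, and over all tested genes 1486 of 2240 were, a similar share. Cox8a had a log2 difference of -0.15 in SR9009 (limma adjusted p = 0.108).

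Summed by complex, nuclear-encoded levels of KO-labelled DMSO libraries averaged 96.9% (complex I), 105% (II), 94.8% (III), 95.7% (IV) and 99.0% (V) of the control DMSO mean. In KO-labelled SR9009 libraries they averaged 101%, 109%, 101%, 101% and 104%, and in control SR9009 libraries 103%, 95.7%, 103%, 105% and 102%. The control SR9009 values above 100% came from library 3, which lay at 119% for complex I. Without it the control SR9009 means were 94.4% (I), 93.0% (II), 95.4% (III), 96.8% (IV) and 96.6% (V), below the control DMSO mean for each complex. All 91 genes together took at least 1.74% of the summed FPKM of every library.

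Of the 13 mitochondrially encoded partner subunits, 8 fell and 0 rose in KO-labelled against control cells in DMSO (median -0.40), against 8.32% of all tested genes called lower, and 4 of the other 5 had positive differences. In SR9009, 8 fell and 0 rose (median -0.51), against 7.43%, and 0 of the 13 had a positive difference. Without the third control SR9009 library 7 fell. The median was negative under each scaling tried. Summed levels in KO-labelled DMSO libraries were 75.3% of the control DMSO mean for complex III, where mt-Cytb is the 1 such gene, and 72.2% for complex V, while the nuclear-encoded sums of the same complexes were 94.8% and 99.0%. For complexes I and IV the mitochondrially encoded sums were 91.0% and 99.9%. Mitochondrial transcripts carry short poly(A) tails, and how poly(A) selection bears on them was not tested.

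**Figure D5:**
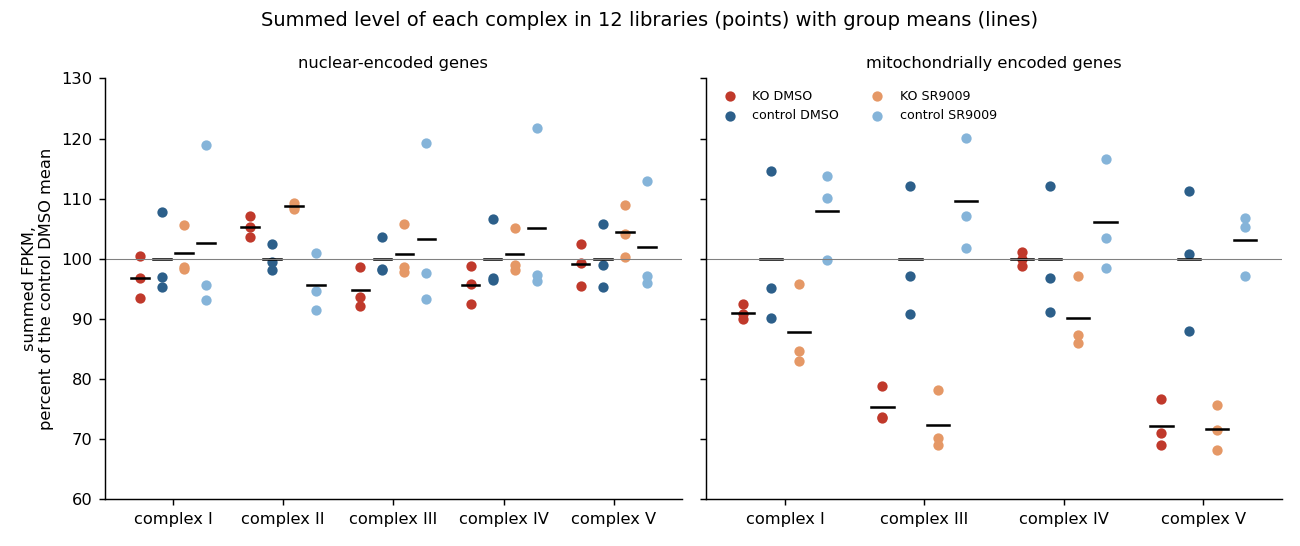
Summed FPKM of each complex in 12 libraries, in percent of the control DMSO mean, for nuclear-encoded genes (left) and mitochondrially encoded genes (right); points are libraries, lines are group means and the axis runs from 60% to 130%. Nuclear-encoded sums lie between 91.5% and 109% outside the third control SR9009 library. Those of complex II lie higher in KO-labelled than in control libraries under both treatments. The mitochondrially encoded sums of complexes III and V lie near 70% to 80% in KO-labelled libraries.

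Assembly factors build the complexes without remaining in them. Sco2, a copper chaperone needed for complex IV, averaged 15.9 FPKM in KO-labelled DMSO libraries and 9.91 FPKM in control DMSO libraries (log2 difference 0.65, limma adjusted p = 0.000919), and 18.0 FPKM in KO-labelled SR9009 libraries and 9.83 FPKM in control SR9009 libraries (0.81, limma adjusted p = 0.000159). Ttc19, a complex III factor, averaged 12.5 FPKM in KO-labelled DMSO libraries and 9.49 FPKM in control DMSO libraries (0.36, limma adjusted p = 0.0053). Lrpprc, which stabilises mitochondrial mRNAs, also rose in KO-labelled cells in DMSO (28.1 against 23.8 FPKM). Of the 13 complex IV factors listed, 2 rose and 0 fell there, near the 11.7% of all tested genes called higher, and of the 11 complex I factors 0 and 0, although Nubpl rose in SR9009 (2.97 against 1.89 FPKM). Among 5 complex V factors, Atpif1, the inhibitor of reverse ATP hydrolysis, fell in KO-labelled cells in SR9009 (11.8 against 16.5 FPKM). Tmem70, which assists ATP synthase assembly, was the listed factor called higher with SR9009 in KO-labelled cells (34.8 against 17.8 FPKM in DMSO, limma adjusted p = 0.0454). The largest log2 difference for SR9009 among the complex V factors was 1.00 in KO-labelled cells and likewise 1.00 in control cells. In control cells and in the interaction 0 of the 5 passed.

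Of 15 tested genes for cytochrome c and for ubiquinone, the mobile carriers between complexes, 1 rose and 2 fell in KO-labelled cells in DMSO, a share at the background of 20.0% of all tested genes. Adck3, needed for ubiquinone synthesis, averaged 14.2 FPKM in KO-labelled libraries and 6.39 FPKM in control libraries (log2 difference 1.07, limma adjusted p = 0.000449). Coq10b averaged 18.4 and 28.9 FPKM in the same groups (-0.63, limma adjusted p = 0.00021) and Coq7, a hydroxylase of the pathway, 57.7 and 68.7 FPKM (-0.25, limma adjusted p = 0.0366). Coq10b and Coq7 also fell in KO-labelled against control cells in SR9009, and Coq9 was the 1 gene that rose. Adck3 was not called there, and the highest log2 difference among the 15 genes was 0.47. SR9009 lowered Adck4 in control cells (25.5 against 35.0 FPKM) and raised Hccs, which attaches haem to cytochrome c, in KO-labelled cells (13.3 against 10.1 FPKM).

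Transcription factors and coactivators known to drive respiratory genes were listed as regulators. The list also held Nr1d1, which encodes a repressor and is itself floxed in these mice. Of 17 tested regulators, 0 passed in KO-labelled against control cells in DMSO (limma). Nrf1 averaged 14.5 ± 0.3 FPKM in KO-labelled DMSO libraries and 16.2 ± 1.0 FPKM in control DMSO libraries (SD, n = 3 each, limma adjusted p = 0.18), Gabpa 16.5 ± 1.6 and 14.8 ± 1.0 FPKM, Esrra 9.57 ± 0.57 and 9.79 ± 0.63 FPKM, and Tfam, which drives transcription of mitochondrial DNA, 8.65 ± 0.39 and 9.23 ± 0.20 FPKM. Of the PGC-1 coactivators, Ppargc1b averaged 1.34 ± 0.19 and 1.06 ± 0.27 FPKM, and Ppargc1a stayed below the level tested, at most 0.338 FPKM in any library. In the other comparisons the 1 listed regulator that passed was Nr1d1, higher with SR9009 in KO-labelled cells (22.1 against 17.7 FPKM) and higher in KO-labelled than control cells in SR9009 (22.1 against 19.5 FPKM). Ppara, a regulator of fatty acid oxidation that was not on the list and was named after its values were seen, fell with SR9009 in both genotypes: it averaged 10.7 FPKM in KO-labelled SR9009 libraries and 27.7 FPKM in KO-labelled DMSO libraries (log2 difference -1.31, limma adjusted p = 0.0109), and 15.4 FPKM in control SR9009 libraries and 36.0 FPKM in control DMSO libraries (-1.22, limma adjusted p = 0.019). The median difference of members with an NRF1 motif was -0.04 in DMSO (18 genes), and that of members without was -0.04 (53 genes).

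Reads shared with copies or neighbours limit a few members. Of the 91, 14 had over 10% of their 50-base words in transcripts of other genes, led by Atp5l2 (73.4%, mostly Atp5l), so their levels are uncertain. None of the 12 called genes was among them, the highest being Atp5f1 at 8.58%. Another gene model overlaps 27 members, and for 6 it reached an appreciable part of the member's own level (Atp5f1, Atp5j, Ndufa4l2, Ndufb11, Ndufb2 and Ndufb5).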

How the data were processed

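Poly(A)-selected RNA of 12 hepatocyte libraries was sequenced. The authors aligned reads with HISAT2 and quantified them with StringTie on mm9, per the submitters' processing notes, and the sources used here give no versions, annotation or strandedness. The deposited table holds 1 value per gene and library, taken as FPKM from the values, since the header names no unit. Counts are absent, so depth is known only in relative terms.

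Values were transformed to log2(FPKM + 1). Genes reaching 1 FPKM in 3 or more libraries were fitted in limma 3.58.1 (R 4.3.3) with a variance trend and robust estimation, in 1 fit of 12 libraries with 5 contrasts, and p-values were adjusted by Benjamini-Hochberg over all tested genes at 0.05. The code was tested on simulated data. Promoters came from RefSeq (GRCm38.p6), and no sequence was read by mm9 coordinates. Python 3.11.15, pandas 2.3.3 and matplotlib 3.10.9 were used.

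Values in every library are given for genes past the threshold, for the 4 complex II genes and for detected tissue isoforms of complex IV (Cox7a1 and Ndufa4l2 in DMSO); further genes were named as the highest of a complex, as isoform partners, as list genes past the threshold (up to 4 per comparison) or as fixed regulators. Ndufc2, Uqcr11, Uqcrh, Uqcrfs1, Ndufa11 and genes called only under an alternative were named after their values were seen. Members and lists were chosen with earlier results of these data known. Same-numbered libraries did not deviate together, so numbers were not used as pairs. Alternatives covered the pseudocount, filter, scaling, variance model, replicate block, groups fitted and libraries left out.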

Additional observations from a re-analysis of the deposited data

How the results depend on the processing

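No called gene changed direction under any alternative. Over 351 gene-level alternatives 237 kept the call and 114 lost it. Of the 237, 21 belong to Cox6a2, which could enter the test only by being higher in control libraries. Those 21 say nothing on how firm its call is. The number of members called for KO-labelled against control cells in DMSO (3) became 8 with TPM, 1 with median of ratios, 0 without a variance trend or robust estimation, and 10 when only the groups of the contrast were fitted. In SR9009 (10) it became 15 with TPM and 11 with quantile normalization. It became 6 without a filter on low values, 5 with median of ratios and 5 without a variance trend or robust estimation. With only the groups of the contrast it became 3, and 6 with the length trend removed, which was chosen after seeing the data. For SR9009 in KO-labelled cells (3) it became 5 with only the groups of the contrast and 2 with median of ratios. Leaving out 1 library at a time gave 0 to 15 calls for KO-labelled against control cells in DMSO, 3 to 13 in SR9009, 1 to 5 for SR9009 in KO-labelled cells, 0 to 2 for SR9009 in control cells and 0 for the interaction, and the cause was not tested. With the replicate block, 0 members were called in DMSO and 9 in SR9009. Same-numbered libraries had deviations correlated at -0.11 to 0.12 (18 pairs), and 5 of 12 libraries correlated best with their own number. Over all genes called in SR9009, 63.5% were higher, against 73.9% with TPM and 48.2% with median of ratios; in DMSO 58.3%, against 69.5% with TPM. Precision is limited by 3 libraries a group, and counting error cannot be given without counts.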
